A study of Mus musculus with 21 samples.

Results

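The 245 genes described here were mouse genes named Zfp and a number, chosen by their deposited level: the mean log2 level over the 3 untreated libraries had to be above 3. The table held 20900 genes in all. Zfp36, Zfp42 and Zfp352 were left out by the same rule. The name alone matched 359 symbols, of which 341 passed the filter on low values, and all 245 members passed it. Just inside the limit of 3 lay Zfp772 at 3.009, Zfp759 at 3.048 and Zfp619 at 3.07, and just outside lay Zfp248 at 2.998, Zfp213 at 2.995 and Zfp942 at 2.989.

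The samples were E14 embryonic stem cells, a line of the 129 strain kept in serum and leukaemia inhibitory factor, and poly(A) RNA was sequenced. Cells were untreated (0 h) or were kept for 2, 4 or 8 h in BMH-21 or in CX-5461, each at 1 µM, which gave 7 groups of 3 libraries. Both compounds are known as inhibitors of RNA polymerase I, the enzyme that transcribes the ribosomal RNA genes. The same 3 untreated libraries were the reference for both inhibitors, no group was kept untreated for 2, 4 or 8 h, and all groups shared the line and medium. The labels do not say whether replicates were separate cultures, so p-values measure the spread between these libraries, which may be technical. In bulk RNA, fewer cells of a type and less RNA per cell cannot be told apart.

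Most proteins of this kind carry arrays of C2H2 zinc fingers, small folds that each hold a zinc ion and that together read a DNA sequence. Many also carry a KRAB domain, which recruits the co-repressor TRIM28 and, through it, the histone methyltransferase SETDB1, and so places repressive marks on retroelements and imprinted regions. Members without KRAB have varied roles, among them transcription at promoters, RNA binding and mitosis.

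Recovered reads ran from 46604397 to 62812641 per library, and no member had fewer than 141 reads in any library. Levels below are log2 values centred on each library's median over the 14666 genes tested, and differences are between group means on that log2 scale, which carries an offset of 0.5 reads. Centring removed a shift from untreated of -0.08, -0.15 and -0.21 at 2, 4 and 8 h of BMH-21 and of -0.15, -0.16 and 0.22 at 2, 4 and 8 h of CX-5461. Marker levels are as deposited. The 8 embryonic stem cell markers examined, summed, were at 12.55 to 12.74 untreated, 11.74 to 11.97 at 4 h and 11.49 to 11.57 at 8 h of BMH-21, and 11.77 to 12.02 at 4 h and 12.41 to 12.51 at 8 h of CX-5461. This sum was below all untreated libraries in every treated group. Its highest 2 h values were 12.42 (BMH-21) and 12.38 (CX-5461). As deposited it lay nearest to untreated at 8 h of CX-5461, the only group with a positive shift (0.22). The sum was not made from centred levels, so the order of the groups may depend on the scaling. At 8 h of CX-5461, 202 members had a negative difference from untreated centred and 123 as deposited, while 4 h of CX-5461 had 186 and 214. How the members stood beside these markers in that group thus depended on the scaling. The 7 fibroblast markers, summed, were at 5.08 to 5.25 untreated and 5.40 to 5.65 at 8 h of BMH-21. Among them Lum never exceeded 2 reads, Col3a1 19 and Dcn 23, and from untreated to 8 h of BMH-21 Col1a1 went from 3.15 to 5.01, Pdgfrb from 1.66 to 1.96, Col1a2 from 0.26 to 0.32 and Thy1 from 4.48 to 3.07. Neural markers, summed, ran from 7.53 to 7.65 untreated, from 6.18 to 6.32 at 8 h of BMH-21 and from 7.69 to 7.80 at 8 h of CX-5461. Tubb3 made up most of this sum. From untreated to 8 h of BMH-21 it went from 7.42 to 6.09, Map2 from 3.38 to 1.77, Pax6 from 3.26 to 0.22 and Sox1 from 1.38 to 1.44. Primitive endoderm markers, summed, were at 3.03 to 3.33 untreated, 2.87 to 3.14 at 8 h of BMH-21 and 3.49 to 3.54 at 8 h of CX-5461. The part of these markers in the results was not tested.

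The annotation GENCODE M21 (GRCm38, the mm10 build of the submitters' notes) gave a single entry for 243 members. Chromosome 7 held 56 of them, chromosome 17 held 33, chromosome 13 held 21 and chromosome 8 held 16. A search of the translated proteins found a KRAB core in 137 and none in 106. The core was called where at least 6 of 9 conserved letters matched, a limit set after seeing the letter scores. The number of C2H2 fingers found had a median of 10 and a range from 0 to 41, with medians of 12 in members with a KRAB core and 8 in those without.

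Promoters are shown for the members with a single RefSeq window that stood farthest apart between the inhibitors at 8 h, the 2 highest and the 2 lowest with BMH-21, so that the sequence upstream of those genes can be read beside their values. Each is the 250 bases before the annotated start, 5′ to 3′ on the gene's strand (RefSeq, GRCm38.p6). Zfp365 is at chr10:67912663-67912912 on the minus strand, Zfp619 at chr7:39517516-39517765, Zfp710 at chr7:80024564-80024813 and Zfp296 at chr7:19577037-19577286, the last 3 on the plus strand. Capitals mark 3 motifs searched on both strands: CCAAT, then CACGTG, and last TATAAA.
Zfp365: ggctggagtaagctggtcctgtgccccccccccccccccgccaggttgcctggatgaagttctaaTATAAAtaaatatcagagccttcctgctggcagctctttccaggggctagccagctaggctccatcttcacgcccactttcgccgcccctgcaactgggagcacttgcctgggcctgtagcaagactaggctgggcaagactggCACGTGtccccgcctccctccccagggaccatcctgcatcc
Zfp619: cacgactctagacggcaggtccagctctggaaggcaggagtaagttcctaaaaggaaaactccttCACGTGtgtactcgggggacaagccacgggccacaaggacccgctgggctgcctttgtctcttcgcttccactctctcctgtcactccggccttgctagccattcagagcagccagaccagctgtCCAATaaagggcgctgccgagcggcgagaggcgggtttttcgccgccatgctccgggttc
Zfp710: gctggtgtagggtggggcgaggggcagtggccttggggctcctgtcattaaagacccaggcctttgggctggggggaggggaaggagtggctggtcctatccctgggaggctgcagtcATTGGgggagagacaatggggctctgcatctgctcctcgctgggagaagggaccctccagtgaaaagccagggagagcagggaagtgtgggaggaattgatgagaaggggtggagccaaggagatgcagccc
Zfp296: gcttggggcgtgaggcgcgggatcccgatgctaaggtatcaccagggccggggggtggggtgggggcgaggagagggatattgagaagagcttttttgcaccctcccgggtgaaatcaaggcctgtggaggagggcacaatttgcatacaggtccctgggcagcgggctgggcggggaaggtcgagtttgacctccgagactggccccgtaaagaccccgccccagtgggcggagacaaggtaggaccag

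RefSeq windows were found for 202 members (248 windows). In the 250 bases before the start, CCAAT stood in 49.6% of the members' windows, in 36.3% of the 9593 windows of genes of any name with a control mean above 3, and in 33.8% of all 32851 windows. CACGTG stood in 6.85%, 8.98% and 6.02%, and TATAAA in 6.85%, 5.67% and 12.4%. CACGTG was tried first, because it stood in several of the first windows read. Over all members it was no more frequent than in genes with a control mean above 3. The motifs were chosen after windows had been read, so the shares are descriptions, and a match is no evidence of a bound factor.

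Against untreated cells most members were lower at every time, but at 8 h their median was close to that of all genes with a control mean above 3. The untreated libraries chose the members, so these differences are described and nothing is tested on them. Members past the threshold (adjusted p under 0.05 in limma with Benjamini-Hochberg adjustment over all genes) numbered 27 higher and 114 lower at 2 h of BMH-21, where 36% of all genes passed, 18.6% higher and 17.5% lower. They numbered 35 and 171 at 4 h (all genes 73.6%, 32.2% higher and 41.5% lower) and 39 and 168 at 8 h (84.6%, 33.3% and 51.3%). With CX-5461 they numbered 20 higher and 138 lower at 2 h (all genes 33.6%, 15.8% higher and 17.8% lower). They numbered 30 and 161 at 4 h (74.2%, 28.5% and 45.7%) and 23 and 154 at 8 h (74%, 29.3% and 44.7%). As deposited, without centring, the splits were 12 and 180 at 4 h of BMH-21, 15 and 183 at 8 h, and 34 and 41 at 8 h of CX-5461. With median-ratio factors they were 46 and 129 at 4 h and 34 and 111 at 8 h of CX-5461.

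The members' median log2 difference from untreated was -0.12, -0.37 and -0.33 at 2, 4 and 8 h of BMH-21. The 9761 genes of any name with a control mean above 3, a background added after the members' counts were seen, had medians of -0.01, -0.13 and -0.33. This background, called genes of like level here, includes the members and shares only their lower limit of level. For CX-5461 the members' medians were -0.20, -0.25 and -0.22 and those of the background -0.04, -0.19 and -0.21. The medians lay well apart at 2 h with both inhibitors and at 4 h of BMH-21, and side by side at 8 h. In the single libraries the members' median ran from -0.15 to -0.12 at 2 h, from -0.42 to -0.36 at 4 h and from -0.42 to -0.28 at 8 h of BMH-21. It ran from -0.21 to -0.17, from -0.30 to -0.20 and from -0.23 to -0.22 with CX-5461. No treated library reached the untreated ones, which lay between -0.01 and 0.01. As deposited, the members' median at 8 h of CX-5461 was -0.01.

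**Figure D1:**
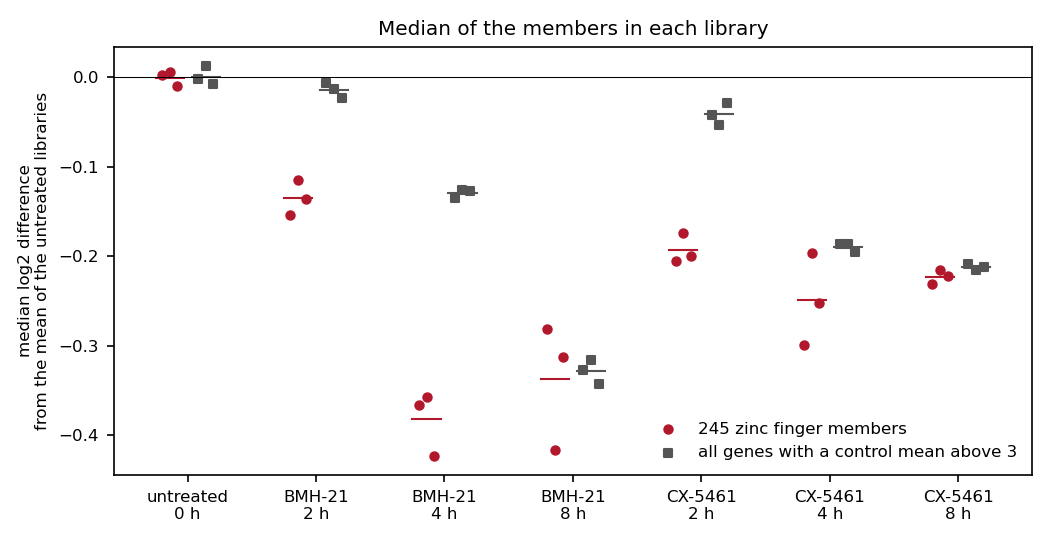
Median log2 difference from the mean of the untreated libraries, for the 245 members (circles) and all genes with a control mean above 3 (squares), with 1 point per library and a line at the mean of 3. The members lie below that whole set at 2 h and at 4 h of BMH-21, and beside it at 8 h.

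All 3 libraries lay below all 3 untreated ones in every treated group for 81 members (33.1%), against 11.6% of all genes tested. They lay above in every treated group for 4 members (1.63%), against 9.05% of all genes. These 4 were Zfp365, Zfp874b, Zfp385a and Zfp870. At 8 h with both inhibitors 139 members (56.7%) lay below every control, against 40.5% of all genes. All these counts are of centred levels, and they were not made as deposited or for the genes of like level. They depend on the centring at 8 h of CX-5461, where 202 members had a negative difference from untreated centred and 123 as deposited.

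Zfp365 had the highest difference from untreated of all members in each of the 6 treated groups. The gene, whose human counterpart is a p53 target linked to genome stability, lies at chr10:67886103-67912662. Its centred log2 levels were 0.46, 0.48 and 0.50 untreated. They were 1.76, 1.87 and 1.88 at 2 h, 3.51, 3.53 and 3.43 at 4 h and 3.77, 3.68 and 3.82 at 8 h of BMH-21. With CX-5461 they were 2.24, 2.22 and 2.14 at 2 h, 3.56, 3.57 and 3.54 at 4 h and 2.69, 2.69 and 2.69 at 8 h. No treated library overlapped the untreated ones, and the 2 inhibitors lay apart at 2 and 8 h. At 4 h they nearly met, with 3.53 the highest in BMH-21 and 3.54 the lowest in CX-5461. The 4 h difference between them, -0.065, did not pass the threshold. The difference from untreated was 3.01 (SE 0.04) at 4 h and 3.28 at 8 h of BMH-21, and 3.08 at 4 h and 2.21 at 8 h of CX-5461. Between 4 and 8 h Zfp365 fell by 0.87 with CX-5461 (limma, adjusted p = 4.4e-14) and rose by 0.26 with BMH-21 (limma, adjusted p = 4.5e-06). The rise was 0.20 as deposited, with an adjusted p of 0.11 in limma. BMH-21 was lower than CX-5461 at 2 h, by -0.37 (limma, adjusted p = 9.6e-07), and higher at 8 h, by 1.06 (limma, adjusted p = 2.3e-16). As deposited these were -0.29, with an adjusted p of 0.12 in limma, and 0.64, and the fall with CX-5461 was -0.49. With quantile normalization the rise with BMH-21 was 0.61.

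Zfp385a, the other p53-linked member, encodes a p53 cofactor that favours cell cycle arrest genes. Its difference from untreated was 0.63, 1.46 and 0.95 at 2, 4 and 8 h of BMH-21, and 0.89, 1.41 and 0.34 of CX-5461. Its levels were 1.40, 1.33 and 1.43 untreated, 2.37, 2.27 and 2.38 at 8 h of BMH-21 and 1.68, 1.76 and 1.73 at 8 h of CX-5461, with no overlap among these groups. The 8 h level was below the 4 h level with each compound. It fell by 0.51 in BMH-21 (limma, adjusted p = 1.7e-10) and by 1.07 in CX-5461 (limma, adjusted p = 1.9e-15). These falls were -0.31 in BMH-21 with quantile normalization and -0.70 in CX-5461 as deposited. The inhibitors differed at 8 h by 0.62 (limma, adjusted p = 3.8e-12), and by 0.19 as deposited, where limma gave an adjusted p of 0.093. The third gene of this list, Zfp385b, was not a member.

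**Figure D2:**
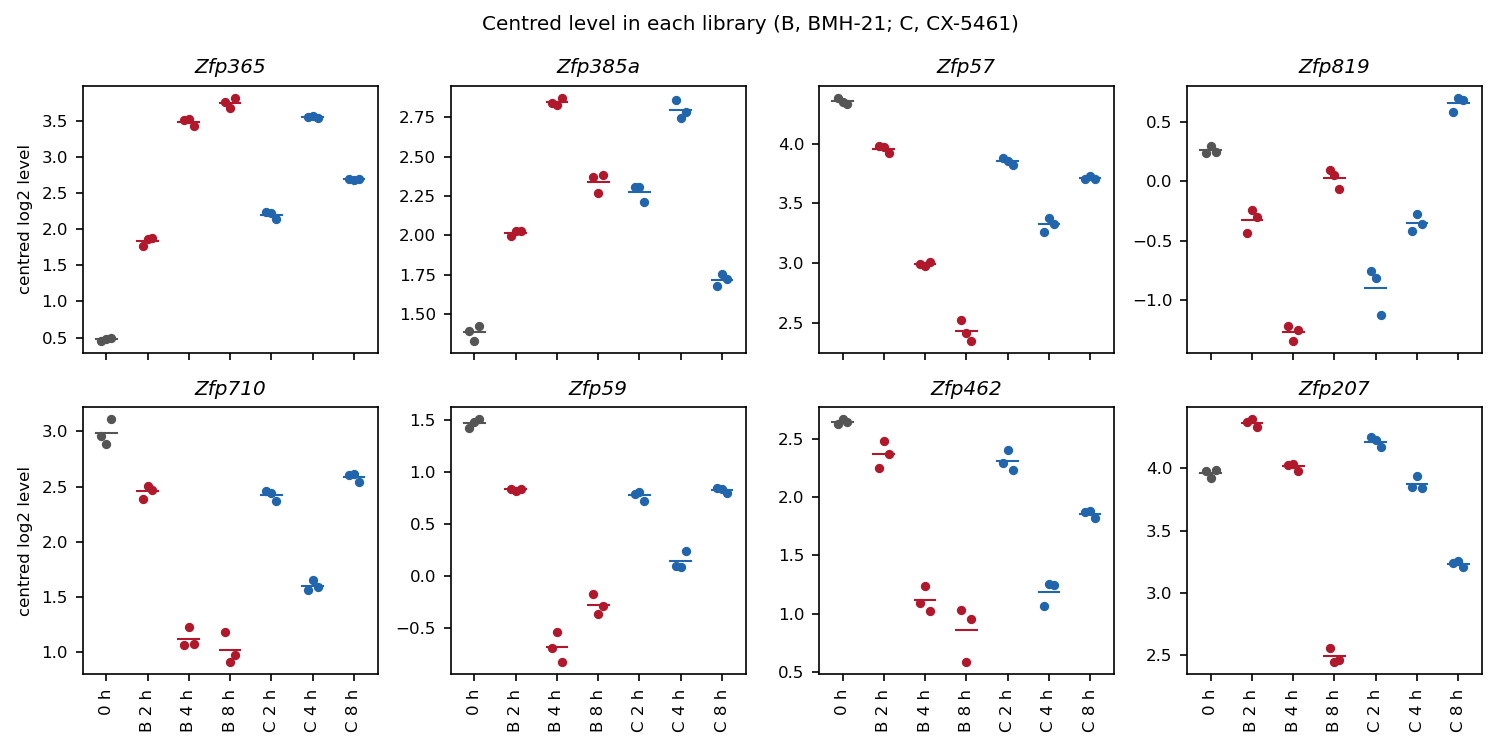
Centred log2 level of 8 members in each of the 21 libraries, with a line at each group mean; each panel has its own y axis. Zfp365 and Zfp385a stand above untreated in every treated group, and Zfp57, Zfp710 and Zfp59 stand below it.

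Of the list of imprint and retroelement repressors, 7 of 8 were members. Zfp57, a KRAB protein that keeps imprinted regions methylated, lies at chr17:37001163-37010635. Its levels were 4.38, 4.35 and 4.33 untreated. They were 3.98, 3.97 and 3.92 at 2 h, 2.99, 2.98 and 3.01 at 4 h and 2.53, 2.41 and 2.35 at 8 h of BMH-21. They were 3.88, 3.85 and 3.83 at 2 h, 3.26, 3.38 and 3.33 at 4 h and 3.71, 3.73 and 3.71 at 8 h of CX-5461. Every treated library lay below the untreated ones, and the 8 h groups did not overlap. Zfp57 fell over the last step by 0.56 with BMH-21 (limma, adjusted p = 1.2e-11) and rose by 0.39 with CX-5461 (limma, adjusted p = 1.3e-08). At 8 h BMH-21 was lower than CX-5461 by -1.29 (SE 0.04; limma, adjusted p = 6.6e-18). The fall with BMH-21 was -0.37 with quantile normalization, and the rise with CX-5461 was 0.77 as deposited. Zfp445, which also guards imprints, did not differ between the inhibitors at 8 h beyond the threshold in limma (-0.05, 95% interval -0.17 to 0.07), although as deposited it was -0.48 and passed.

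Zfp819, a KRAB protein linked to silencing of retroelements in stem cells, moved differently. Its levels were 0.24, 0.30 and 0.25 untreated, -1.22, -1.34 and -1.25 at 4 h and 0.10, 0.05 and -0.07 at 8 h of BMH-21. They were -0.76, -0.81 and -1.12 at 2 h and 0.58, 0.70 and 0.68 at 8 h of CX-5461. The 8 h libraries of CX-5461 lay above the untreated ones and those of BMH-21 below. Between 4 and 8 h it rose by 1.297 in BMH-21 (limma, adjusted p = 5.3e-13) and by 1.01 in CX-5461 (limma, adjusted p = 1.3e-10). Zfp600 was lower with BMH-21 than with CX-5461 at 8 h by -0.71 (limma, adjusted p = 1.6e-11), and by -1.14 as deposited. Zfp568, which represses a placental Igf2 promoter, differed by 0.03 centred (95% interval -0.09 to 0.15) and by -0.40 as deposited. Zfp932, which binds endogenous retroviruses, differed by 0.01 centred (95% interval -0.07 to 0.10) and by -0.42 as deposited. Zfp809, which recruits silencing to retroviral primer binding sites, gave 0.15 (limma, adjusted p = 0.047) and -0.28 as deposited, so its direction depended on the scaling. The call was also lost with the replicate number as a block (limma, adjusted p = 0.061) and without any 1 of 5 libraries of 8 h. Without BMH-21 replicate 1 or 3 limma gave 0.113 and 0.074 (adjusted p = 0.17 and 0.32), and without CX-5461 replicate 1, 2 or 3 it gave 0.158, 0.163 and 0.121 (adjusted p = 0.066, 0.058 and 0.15).

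Of the 22 genes listed for chromatin and transcription, 21 were members, and 20 were past the threshold lower than untreated at 8 h of BMH-21 (51.3% of all genes lower) and 16 at 8 h of CX-5461 (44.7%), where 6 were lower as deposited. The shares in this paragraph are over all genes tested and not over those of like level. Between inhibitors at 8 h, 16 were lower with BMH-21 and 0 higher, where limma called 31.1% of all genes higher and 40.6% lower. Over the step from 4 to 8 h, 12 rose and 1 fell in CX-5461 (all genes 57.8%, 25.8% higher and 32% lower). In BMH-21, 6 rose and 8 fell over that step (all genes 70.5%, 28.3% higher and 42.2% lower). As deposited, 20 rose in CX-5461, with Zfp219, the 1 that fell, at 0.19, and 2 rose and 7 fell in BMH-21. With median-ratio factors 7 rose and 6 fell in BMH-21, so that split depended on the scaling. Zfp462, a nuclear protein that stem cells need to hold their identity, was at 2.63, 2.67 and 2.64 untreated. It was at 1.03, 0.59 and 0.96 at 8 h of BMH-21 and at 1.87, 1.88 and 1.82 at 8 h of CX-5461, with no overlap. Zfp296, a stem cell protein that binds a chromatin remodelling complex, was at 1.73, 1.75 and 1.77 untreated, 2.26, 2.15 and 2.18 at 2 h of BMH-21 and 0.50, 0.42 and 0.54 at 4 h. It was thus above untreated at 2 h and below it at 4 h. The step from 2 to 4 h was -1.71 in BMH-21 (limma, adjusted p = 1.4e-18) and -1.54 in CX-5461 (limma, adjusted p = 1.8e-17), the lowest among members in both. Zfp410, known as an activator of Chd4, differed between the inhibitors at 8 h by 0.05 centred (95% interval -0.07 to 0.17) and by -0.38 as deposited.

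Zfp710 lies at chr7:80024814-80094173. Its levels were 2.96, 2.89 and 3.11 untreated, 1.18, 0.91 and 0.97 at 8 h of BMH-21 and 2.61, 2.62 and 2.54 at 8 h of CX-5461. The 3 groups did not overlap, and the 8 h difference between inhibitors, -1.57 (SE 0.06; limma, adjusted p = 3.8e-16), was the lowest of all members. Zfp59, a KRAB member, was lower with BMH-21 by -1.11 (limma, adjusted p = 1e-13) and Zfp280b by -1.02 (limma, adjusted p = 1.1e-13). Higher with BMH-21 at 8 h were Zfp654 by 1.00, Zfp619 by 0.73, Zfp874b by 0.71 and Zfp423, a transcription factor of fat cell precursors, by 0.63. These 4 had adjusted p of 7.9e-12, 3.4e-07, 9e-10 and 1.5e-08 in limma. As deposited the 4 differences were smaller, at 0.57, 0.31, 0.28 and 0.20, and that of Zfp423 missed the threshold (limma, adjusted p = 0.097).

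All 10 genes listed for RNA, translation and mitosis were members. Zfp207, a mitotic protein that binds the checkpoint protein BUB3, was at 3.98, 3.92 and 3.99 untreated and at 4.37, 4.39 and 4.33 at 2 h of BMH-21. At 8 h it was at 2.56, 2.45 and 2.47 with BMH-21 and at 3.24, 3.25 and 3.21 with CX-5461. The 2 h libraries lay above the untreated ones and the 8 h libraries below. Zfp207 fell between 4 and 8 h by 1.52 in BMH-21 (limma, adjusted p = 2.7e-19) and by 0.64 in CX-5461 (limma, adjusted p = 1.6e-12), where it was -0.27 as deposited. Zfp593, whose yeast counterpart acts in export of the large ribosomal subunit, fell by 0.64 with BMH-21 over that step (limma, adjusted p = 5e-07). With CX-5461 its change was -0.14 (limma, adjusted p = 0.16), and 0.23 as deposited. Zfp598, a ubiquitin ligase that senses collided ribosomes, fell by 0.43 with BMH-21 (limma, adjusted p = 1.3e-09), and by 0.22 with quantile normalization. Zfp346, which binds double-stranded RNA, was higher with BMH-21 than CX-5461 at 8 h by 0.41 centred (limma, adjusted p = 4.3e-08), but gave -0.02 as deposited.

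The steps between treated groups do not use the untreated libraries and were tested. From 2 to 4 h of BMH-21, limma called 33 members higher and 157 lower, or 64.1% lower, where 68.2% of all genes were called, 29% higher and 39.3% lower. Of the genes with a control mean above 3, 49.2% were called lower. In the following step, to 8 h, the members turned, with 93 higher and 62 lower (all genes 70.5%, 28.3% higher and 42.2% lower). That was 38% of members higher against 22.6% of the like-level genes, and 25.3% lower against 53.2%. This split depended on the scaling, since 36 were higher and 47 lower as deposited, and 137 higher and 38 lower with median-ratio factors. The members' median lay above that of all genes in each, at 0.07 against -0.08 centred, 0.01 against -0.14 as deposited and 0.19 against 0.03 with median-ratio factors.

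From 2 to 4 h of CX-5461, 51 members were called higher and 94 lower (all genes 67%, 26.7% higher and 40.2% lower), and 73 and 76 with median-ratio factors. In the next step, from 4 to 8 h, 80 were higher and 66 lower (all genes 57.8%, 25.8% higher and 32% lower), and 175 and 4 as deposited. Over the 4 to 8 h step 45 members were called higher with both inhibitors, or 18.4% against 11.4% of all genes, and 30 lower with both, or 12.2% against 19%. Another 11 rose with BMH-21 and fell with CX-5461 (4.49% against 5.99%), and 17 did the reverse (6.94% against 6.88%), both near the share of all genes. As deposited these 4 counts were 35 (14.3% against 12.2% of all genes), 2 (0.816% against 1.64%), 0 (against 1.02%) and 23 (9.39% against 18.6%). How the members stood against all genes thus depended on the scaling. The share higher with both was then close to that of all genes, and the last share was below it.

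**Figure D3:**
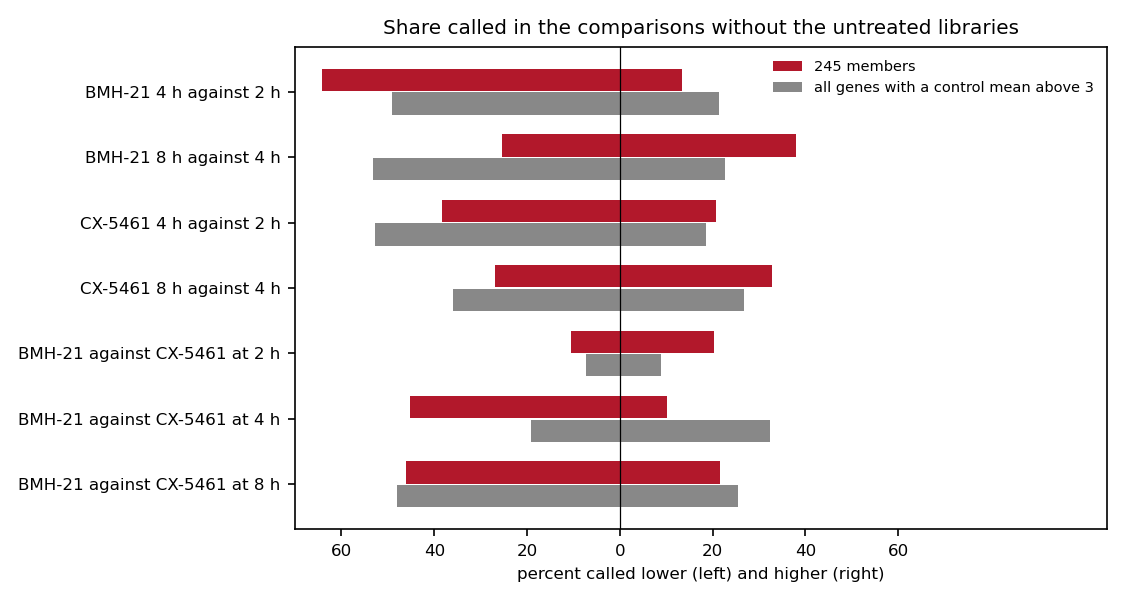
Percent of the 245 members and of all genes with a control mean above 3 that limma called lower (left) or higher (right) in 7 comparisons without the untreated libraries. From 4 to 8 h of BMH-21, 38% of members were higher against 22.6% of the other set; at 4 h, 45.3% of members were lower with BMH-21 than with CX-5461 against 19.2%.

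Between inhibitors at 2 h, 50 members were higher with BMH-21 and 26 lower (all genes 15.4%, 7.83% higher and 7.58% lower). The count of 76 fell to 48 without CX-5461 2 h replicate 3 and to 12 as deposited, and with median-ratio factors 33 were higher and 29 lower. At 4 h, 25 were higher and 111 lower (all genes 45.8%, 27.4% higher and 18.5% lower), and 5 and 58 as deposited. The share lower was 45.3% of members and 19.2% of the like-level genes. At 8 h, 53 were higher and 113 lower (all genes 71.7%, 31.1% higher and 40.6% lower), and 4 and 199 as deposited. The share lower at 8 h, 46.1%, was near the 48% of the like-level genes.

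The change from 4 to 8 h was itself compared between inhibitors, and limma called 63 members higher and 54 lower with BMH-21 (all genes 60.2%, 24% higher and 36.2% lower). As deposited the split was 2 and 137, and with median-ratio factors 96 and 32. The members' median was 0.05 centred, -0.38 as deposited and 0.16 with median-ratio factors, and 155 of 245 members changed sign among the scalings. No direction for the members as a group is therefore given for this comparison.

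Over the step from 4 to 8 h of BMH-21 the 137 members with a KRAB core had a median of 0.12, with 60 called higher and 23 lower, and the 106 without had a median of -0.03, with 33 higher and 39 lower. Of all genes tested, 28.3% were called higher and 42.2% lower in this step, and the shares of members without a core were near these. Of the genes with a control mean above 3, 22.6% were called higher and 53.2% lower. Members of both kinds were called higher more often, and lower less often, than that set. As deposited the counts were 26 and 13 with a core and 10 and 34 without, and with median-ratio factors 91 and 10, and 46 and 28. The median of all genes in this step was -0.14 as deposited and 0.03 with median-ratio factors. The definition of the core was tried in 3 versions. With at least 7 of 9 letters the medians were 0.11 and -0.02. With a strict pattern on the longest protein, which found 110, they were 0.09 and 0.02, so the sign for members without a core depended on the definition. The difference between the 2 kinds was not tested. From 4 to 8 h of CX-5461 the same 137 and 106 members had medians of 0.03 and 0.05. Of these, 42 and 38 were called higher and 34 and 32 lower. From 2 to 4 h the medians were -0.27 and -0.25 in BMH-21 and -0.01 and -0.09 in CX-5461. Between inhibitors they were 0.09 and 0.04 at 2 h, -0.16 and -0.09 at 4 h and -0.09 and -0.19 at 8 h. For the change from 4 to 8 h, BMH-21 minus CX-5461, they were 0.08 and -0.04. The order of the kinds thus varied with the comparison.

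**Figure D4:**
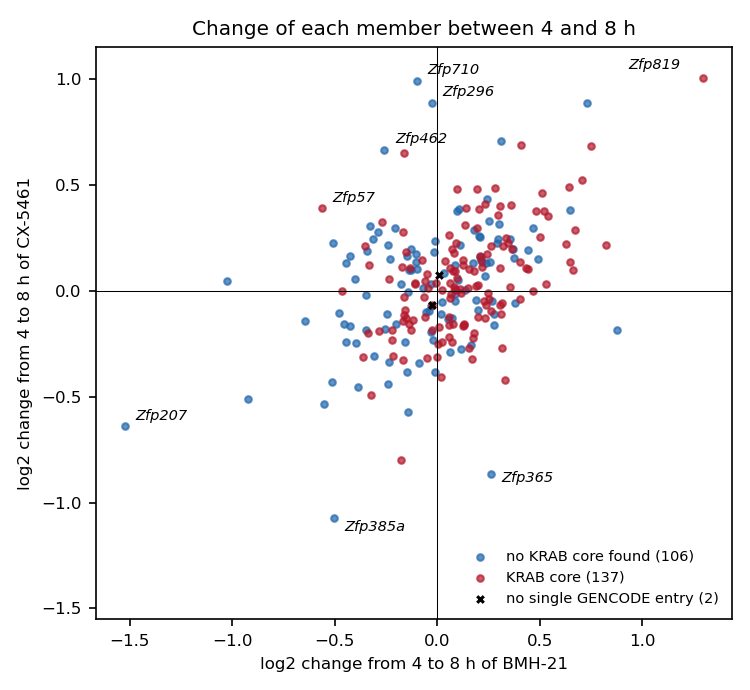
Log2 change of each member from 4 to 8 h of BMH-21 (x axis) and CX-5461 (y axis), coloured by KRAB core. Zfp819 rose with both, Zfp207 and Zfp385a fell with both, and Zfp57 fell with BMH-21 and rose with CX-5461.

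The co-repressors that KRAB proteins use were counted from a list of 25 symbols, of which 24 were tested and none was a member. At 8 h against untreated, limma called 21 lower and 2 higher with BMH-21 (all genes 84.6% called, 51.3% lower), and 22 lower with CX-5461 (all genes 74%, 44.7% lower), where 12 were lower as deposited. These shares are over all genes tested, which include weakly expressed ones. Between 4 and 8 h of BMH-21, 19 fell and 1 rose, Atf7ip, where 28.3% of all genes were called higher and 42.2% lower. Of the genes with a control mean above 3, 22.6% were called higher and 53.2% lower in that step. As deposited and with median-ratio factors 18 fell and 1 rose. Trim28, the scaffold of the complex, fell by 1.25 in that step with BMH-21 (limma, adjusted p = 1.3e-16) and by 0.54 with CX-5461 (limma, adjusted p = 4.6e-10). The change with CX-5461 was -0.16 as deposited, with an adjusted p of 0.12 in limma, and -0.31 with quantile normalization. Setdb1, the histone methyltransferase, fell by 0.52 with BMH-21 (limma, adjusted p = 3.8e-11), and by 0.32 with quantile normalization. At 8 h Trim28 was lower with BMH-21 than with CX-5461 by -0.56 (limma, adjusted p = 7e-11), and by -0.99 as deposited.

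All 341 tested genes with such a name, with no limit on the control level, were also compared with untreated, a set chosen with the members' results known. Limma called 50 higher and 136 lower at 2 h of BMH-21 (36% of all genes called), 67 and 205 at 4 h (73.6%) and 86 and 194 at 8 h (84.6%). For CX-5461 the counts were 40 and 164 (33.6%), 72 and 176 (74.2%), and 60 and 170 (74%). At 8 h of CX-5461 the split was 84 higher and 46 lower as deposited, so its direction depended on the scaling, and 81 and 122 with median-ratio factors. Other splits that moved were 36 and 216 at 4 h and 44 and 215 at 8 h of BMH-21 as deposited, 18 and 175 at 2 h and 32 and 185 at 4 h of CX-5461 as deposited, and, with median-ratio factors, 107 and 153 at 8 h of BMH-21 and 95 and 140 at 4 h of CX-5461.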

How the data were processed

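Poly(A) RNA from E14 cells was measured in 21 libraries, grouped by their titles. The deposited table, 20900 genes by 21 columns with 0 unmapped, holds log2 values made by the authors with voom, per the file headers and names. The submitters' processing notes list mm10, Trim Galore 0.5.0, TopHat2 2.1.1, R 4.0.5, DESeq2 1.30.1, edgeR 3.32.1 and limma 3.46.0. The counting program, annotation and filters are not given in the sources used here. Reads were recovered from the log2 values with the 0.5 offset, each within 1.7e-08 of a whole number. They were used for depth and for alternative scalings, and PCR copies cannot be told from separate molecules.

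Genes above log2 0 in at least 3 libraries were kept (14666). Values were centred on each library's median, because the member rule asks for it. Limma 3.58.1 (R 4.3.3) fitted 7 group means with a trended prior (8.5 prior and 14 residual degrees of freedom), two-sided, with Benjamini-Hochberg adjustment over all genes tested at 0.05, for 14 comparisons. The fit was also run on simulated data in which few genes changed, as many up as down, and only at 8 h of BMH-21. In these data most genes were called in many comparisons, so that run cannot show how centring and calls hold here. Counts of replicate libraries differed beyond counting error in each pair (chi-square over its degrees of freedom, 2.65 to 27.3).

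The members and lists were chosen with earlier results of these data known. Named genes were, for each comparison with untreated, the 3 largest rises and falls without overlap; for 4 further comparisons, the 5 largest each way past the threshold; and the role lists. Only part of them is printed. Proteins were translated from GENCODE M21 transcripts, since a RefSeq protein table was not used here. The KRAB core was defined in 3 successive versions, the last after letter scores were seen; the expression counts were first made with the last. Promoter motifs were first read over 300 bases, where CCAAT stood in 50.8% of the members' windows and 38.6% of those of like level, CACGTG in 7.26% and 10.8%, and TATAAA in 7.26% and 6.34%. The window of 250 bases, the background of like level and the rule for printed promoters were chosen after those values were seen. An earlier choice of 4 promoters, picked from windows already read, was dropped. Alternatives were other scalings, filters, offsets, variance models, member limits, the replicate block and leaving out each replicate. The role lists and co-repressors were recounted under the other scalings and the block as an alternative chosen after seeing the data. Figures used matplotlib 3.10.9.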

Additional observations from a re-analysis of the deposited data

Results flagged for a closer look

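The change from 4 to 8 h differed between BMH-21 and CX-5461 for 117 of 245 members by limma's test of the difference (adjusted p under 0.05), where 60.2% of all genes passed. On centred levels the share of members was thus below that of all genes. The split of this count by direction depended on the scaling, as given above. The members named by rule are given as the change with BMH-21 minus that with CX-5461, on the centred log2 scale. More positive with BMH-21 were Zfp365 at 1.13, Zfp423 at 1.06, Zfp759 at 0.75, Zfp619 at 0.63 and Zfp51 at 0.61. More negative were Zfp710 at -1.09, Zfp428 at -1.07, Zfp57 at -0.95, Zfp462 at -0.92 and Zfp296 at -0.91. As deposited, Zfp759 gave 0.32, Zfp619 gave 0.19 and Zfp51 gave 0.17, and these 3 missed the threshold in limma.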

How the results depend on the processing

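Scaling was the choice that moved most. As deposited, without centring, members called were 83 from 4 to 8 h of BMH-21 (155 centred), 88 from 2 to 4 h of CX-5461 (145), 12 and 63 between inhibitors at 2 and 4 h (76 and 136) and 75 past the threshold at 8 h of CX-5461 (177). All tested genes of the name numbered 130 there (230). The cause was not tested. Direction reversed as deposited for Zfp106 (-0.30), Zfp326 (-0.23), Zfp346 (-0.019) and Zfp809 (-0.28) between inhibitors at 8 h. It also reversed from 4 to 8 h of CX-5461 for Zfp106 (0.035), Zfp219 (0.19), Zfp598 (0.20), Zfp809 (0.065) and Zfp932 (0.26). With quantile normalization it reversed from 4 to 8 h of BMH-21 for Zfp106 (0.17) and Zfp706 (0.044). Trim28 gave 0 with it between inhibitors at 4 h, where the centred value passed the threshold. Leaving out each replicate in turn gave, in order, 180 to 185 for BMH-21 4 h against 2 h, 148 to 154 for BMH-21 8 h against 4 h, 131 to 137 for CX-5461 4 h against 2 h, 122 to 131 for CX-5461 8 h against 4 h, 48 to 61 for BMH-21 against CX-5461 at 2 h, 120 to 131 for BMH-21 against CX-5461 at 4 h, 154 to 168 for BMH-21 against CX-5461 at 8 h, 107 to 130 for change from 4 to 8 h, BMH-21 minus CX-5461. The lowest between inhibitors at 2 h, 48, came without CX-5461 2 h replicate 3. Against untreated, the members gave 125 to 133 at 2 h of BMH-21, 199 to 206 at 4 h of BMH-21, 200 to 208 at 8 h of BMH-21, 134 to 148 at 2 h of CX-5461, 178 to 187 at 4 h of CX-5461, 162 to 168 at 8 h of CX-5461, and all tested genes of the name 166 to 172, 261 to 265, 269 to 281, 171 to 191, 232 to 239, 208 to 221.

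With the replicate number as a block, members called from 4 to 8 h were 153 with BMH-21 and 137 with CX-5461, and 115 for the difference of the 2 changes. The 63 correlations of same-numbered libraries ran from -0.25 to 0.11, with 1 over 0.1, so no strong effect shared by replicate number was seen. Weak correlations cannot exclude that same-numbered libraries belong together, and the labels do not say. The block moved no count of members by over 1.5 times. With it 4 single results missed the threshold: in limma, adjusted p was 0.061 for Zfp809 and 0.06 for Zfp219 between inhibitors at 8 h, and 0.058 for Zfp322a and 0.054 for Zfp518b from 4 to 8 h of CX-5461.

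Recovered reads cover counting error only. Shared untreated libraries and the lack of untreated cells at 2, 4 and 8 h mean that time in culture and treatment cannot be told apart. The scaling factors behind the deposited values are not given in the sources used here.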
